A study of Mus musculus with 15 samples.

Results

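The comparison of shLINE_Orf2 directly with shLINE_Orf1 sets the transcriptomes under a pair of LINE-1 hairpins side by side, gene by gene. It takes its groups from the library labels and not from any measured value. It uses 6 of the 15 libraries of the series, 3 with shLINE_Orf2 and 3 with shLINE_Orf1 alone, and it covers all genes that could be tested. The cells were neural progenitors of wild-type mice, the dividing precursors of neurons and glia, cultured with FGF2, EGF and heparin. Plasmids that carried a short hairpin RNA (shRNA) and EGFP were introduced, and cells with GFP were sorted 3 days later. All groups, shControl included, went through the plasmid and the sort. The shLINE_Orf1 group here had no added LINE-1. The design text says that hairpins were aimed at young and at old LINE-1 elements and that added full-length LINE-1 went with the young one, and the labels combine it with shLINE_Orf1. The age of the elements that shLINE_Orf2 is aimed at is not stated in the sources used here.

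The mouse genome carries many copies of LINE-1, a retrotransposon that spreads by reverse transcription of its own RNA. Its RNA encodes an RNA-binding protein from the first open reading frame (Orf1) and a protein with endonuclease and reverse transcriptase activity from the second (Orf2). An shRNA is cut into a small RNA that guides the silencing machinery to matching transcripts, and a pair of hairpins against one kind of element is commonly used to tell shared effects from those of a single hairpin. LINE-1 RNA was not analysed here, so the depth of the knockdown under either hairpin is not known.

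The 6 libraries held between 39204191 and 48724079 gene counts. Nothing in the labels says that replicates came from separate cultures. The p-values thus reflect how far libraries spread around their group, a spread that may be technical. The model shares that spread over all 5 groups, so libraries outside this comparison also enter it. The library of shLINE_Orf1 replicate 1 stood apart. Its Spearman correlation with the other libraries of the series had a median of 0.974, against at least 0.989 for every other library. Mitochondrially encoded mRNAs took 3.61% of its counts, against 1.42% to 1.97% in shLINE_Orf2 and 1.80% and 1.47% in the other shLINE_Orf1 libraries. It is also the only one of the 6 whose description carries the number 12 and not 1, which the labels do not explain. Counts of lists and the log2 fold changes of most named genes are given below with all libraries and without that one. The fit without it was set because earlier results of these data had shown it standing apart.

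The 10 genes with the smallest p-values, out of 15141 tested, all had an adjusted p of 0.0596, just above the threshold of 0.05. The small heat shock gene Cryab, the septin Sept4, the calcium channel gamma-like Tmem37, the p53 target Pmaip1, the meiotic gene Tex15, the vesicle protein Svop and the adenylate kinase Ak1 were lower in shLINE_Orf2. The transcription factor Sox6, the lipoprotein receptor Vldlr and the acetyl-CoA synthetase Acss2 were higher. No gene was called higher or lower at an adjusted p under 0.05 (0 of 15141, 0%; quasi-likelihood test of edgeR, p-values adjusted by Benjamini-Hochberg). At an unadjusted p under 0.05 there were 1729 genes, or 11.4%, of which 840 were higher and 889 lower, where chance gives 757. DESeq2 called 44 genes higher and 84 lower (0.862%), and limma-voom with quality weights 476 higher and 356 lower (5.50%).

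Without shLINE_Orf1 replicate 1, edgeR again called 0 of 15444 genes (0%), with a smallest adjusted p of 0.0721. The number at an unadjusted p under 0.05 was then 968, or 6.27%, where chance gives 772, with 448 higher and 520 lower. Of the 1729 genes above, 1725 kept their sign and 627 also had an unadjusted p under 0.05 without that library. DESeq2 then called 91 genes (0.626%) and limma-voom 26 (0.168%). For 78.0% of genes the 95% interval of the log2 fold change lay within 1 in either direction with all libraries, and for 39.9% it lay within 0.5. These shares were 77.9% and 56.5% without that library.

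Among the lower genes, Cryab (chromosome 9, 50751325 to 50756636, GRCm38), which encodes the chaperone alpha B-crystallin, stood at 36.4, 38.2 and 40.6 CPM (gene counts scaled to the total of each library) in the shLINE_Orf2 libraries, against 69.9, 58.3 and 53.9 CPM in the shLINE_Orf1 libraries. The groups did not overlap, and both lay above shControl, at 18.3, 20.5 and 20.3 CPM. The log2 fold change of shLINE_Orf2 over shLINE_Orf1 was -0.66 ± 0.11 (SE), and -0.55 ± 0.10 without shLINE_Orf1 replicate 1 (adjusted p = 0.109). Cryab was the 1 heat shock gene of 16 that was lower at an unadjusted p under 0.05, and Hsf1, the factor that induces such genes, the 1 that was higher. Of all genes 5.87% were lower and 5.55% higher, so the list was near the shares of all genes. The list had a median of 0.02. Without shLINE_Orf1 replicate 1 its median was -0.03, with 1 lower and 0 higher (3.37% and 2.90% of all genes).

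Sept4 (chromosome 11, 87568903 to 87590539), a cytoskeletal septin with a form that promotes apoptosis, was at 12.9, 12.1 and 11.6 CPM in shLINE_Orf2 and 21.7, 21.2 and 19.0 CPM in shLINE_Orf1. Its log2 fold change was -0.76 ± 0.12, and -0.72 ± 0.12 without shLINE_Orf1 replicate 1. Tmem37 (chromosome 1, 120067377 to 120074074) was at 7.96, 7.20 and 7.29 CPM in shLINE_Orf2 and 14.3, 13.8 and 13 CPM in shLINE_Orf1 (-0.87 ± 0.14, and -0.84 ± 0.14 without that library). For both genes the shLINE_Orf1 replicates were close to each other, and the library that stands apart was not far from the other replicates. The shControl means, 14.8 CPM for Sept4 and 8.81 CPM for Tmem37, were nearer to shLINE_Orf2 than to shLINE_Orf1.

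Svop, a transporter-like protein of synaptic vesicles, averaged 17.1 ± 0.76 CPM in shLINE_Orf2 and 29.8 ± 4.4 CPM in shLINE_Orf1 (SD, n = 3 each), with log2 fold changes of -0.80 ± 0.14 with all libraries and -0.67 ± 0.13 without shLINE_Orf1 replicate 1. Ak1, which keeps adenine nucleotides in balance in the cytosol, averaged 82.7 ± 5.8 CPM in shLINE_Orf2 and 129 ± 11 CPM in shLINE_Orf1 (-0.64 ± 0.11, and -0.57 ± 0.11 without that library). Tex15, a germ cell gene known in mouse testis for a part in silencing transposons, was low in both groups, at 0.708, 0.724 and 0.935 CPM in shLINE_Orf2 and 3.47, 1.83 and 2.33 CPM in shLINE_Orf1, with a log2 fold change of -1.68 ± 0.28, and -1.40 ± 0.27 without that library. Gpd1, the cytosolic glycerol-3-phosphate dehydrogenase, had the smallest p without shLINE_Orf1 replicate 1, with a log2 fold change of -0.60 ± 0.09 (adjusted p = 0.0721), and -0.47 ± 0.11 with all libraries (adjusted p = 0.182). Without that library the extracellular superoxide dismutase Sod3 stood at -0.63 ± 0.11 and the matrix protein Matn2 at -0.60 ± 0.11 on the log2 scale. With it, Sod3 stood at -0.48 ± 0.14, while Matn2 stood at -0.36 ± 0.18 with overlapping groups.

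Among the higher genes, Sox6 (chromosome 7, 115470872 to 116038796), a transcription factor of neural and glial precursors, was at 66.5, 68.3 and 68.5 CPM in shLINE_Orf2 and 39, 45.8 and 48.8 CPM in shLINE_Orf1. Its log2 fold change was 0.61 ± 0.10, and 0.52 ± 0.09 without shLINE_Orf1 replicate 1 (adjusted p = 0.113). The shControl libraries, at 52, 50.3 and 60.1 CPM, lay between the hairpin groups. Vldlr (chromosome 19, 27216484 to 27254231), a receptor for reelin and lipoproteins, was at 94.1, 79.2 and 69.5 CPM in shLINE_Orf2 and 42.9, 54.1 and 52.2 CPM in shLINE_Orf1 (0.70 ± 0.12, and 0.61 ± 0.12 without that library).

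Acss2 (chromosome 2, 155517948 to 155585724), which makes acetyl-CoA from acetate, was at 158, 132 and 121 CPM in shLINE_Orf2 and 87.8, 95.5 and 97.3 CPM in shLINE_Orf1 (0.55 ± 0.10, and 0.51 ± 0.10 without shLINE_Orf1 replicate 1). The shLINE_Orf1 mean of 93.5 CPM was close to the 93.4 CPM of shControl. Enpp2, the enzyme autotaxin that makes lysophosphatidic acid, averaged 34.2 ± 2.5 CPM in shLINE_Orf2 and 23.0 ± 0.18 CPM in shLINE_Orf1, with an adjusted p of 0.0824 (0.57 ± 0.10, and 0.58 ± 0.11 without that library). Cep55, a scaffold of the last step of cell division, averaged 52.5 ± 3.0 CPM in shLINE_Orf2 and 37.0 ± 5.3 CPM in shLINE_Orf1, and it shared the smallest adjusted p of 0.0721 with Gpd1 when shLINE_Orf1 replicate 1 was left out (0.62 ± 0.10).

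Tet1, an enzyme that oxidises methylated cytosine, averaged 27.6 ± 2.8 CPM in shLINE_Orf2 and 17.1 ± 0.945 CPM in shLINE_Orf1 (0.69 ± 0.14, adjusted p = 0.129, and 0.64 ± 0.15 without shLINE_Orf1 replicate 1). The protocadherin Pcdh15 and the orphan receptor Gpr149 had log2 fold changes of 0.83 ± 0.17 and 1.60 ± 0.33 with all libraries, and 0.87 ± 0.19 and 1.83 ± 0.38 without that one. Gpr149 was low, with a level of 1.24 ± 0.084 CPM in shLINE_Orf2 and 0.407 ± 0.14 CPM in shLINE_Orf1. DESeq2 and limma-voom both called 19 genes with and without shLINE_Orf1 replicate 1. The 5 higher ones are Sox6, Vldlr, Acss2, Enpp2 and Cep55, and among the 14 lower ones are Cryab, Sept4, Tmem37, Pmaip1, Svop, Ak1, Gpd1 and Dcxr, a set read off after the values were seen.

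**Figure D1:**
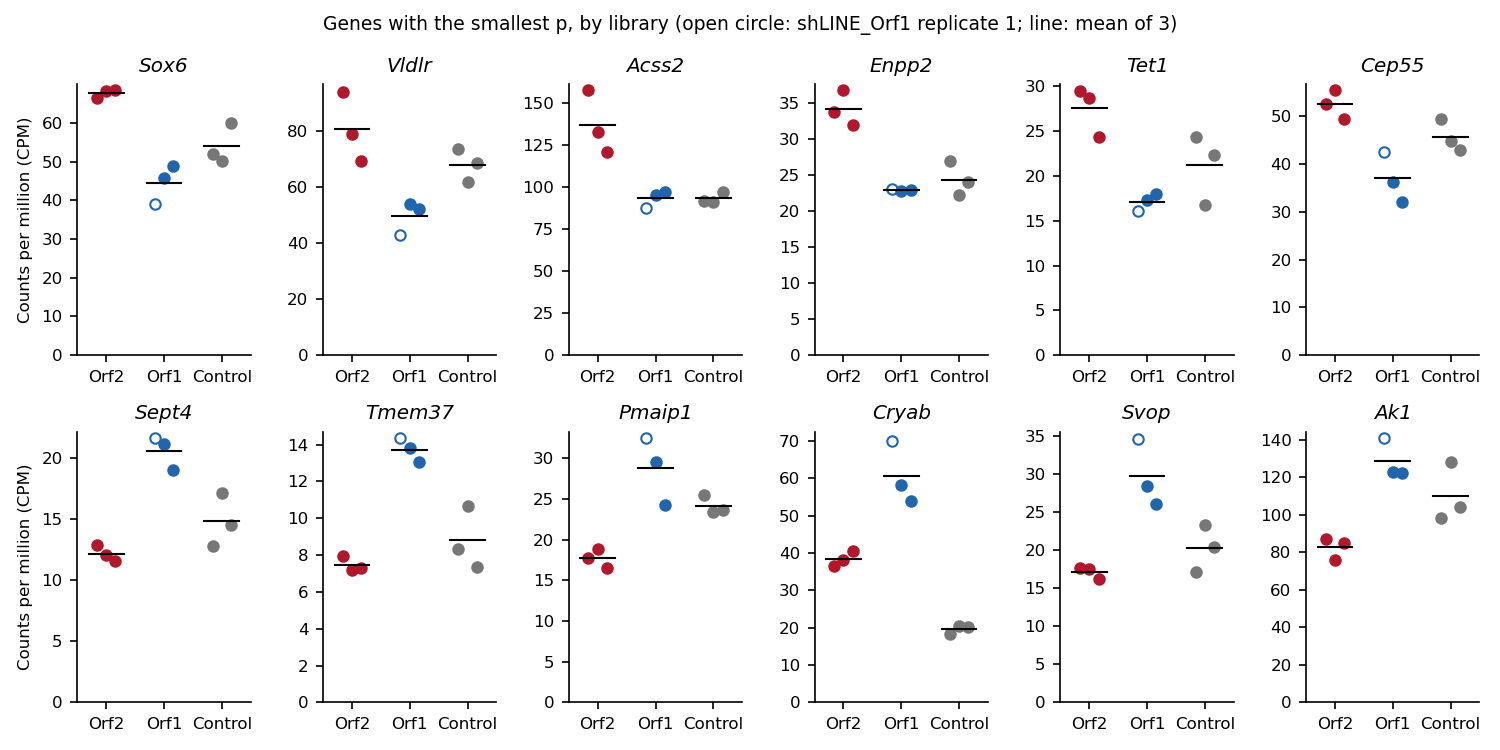
Level in CPM in each library of shLINE_Orf2 (left), shLINE_Orf1 (middle, replicate 1 open) and shControl (right) for 6 higher and 6 lower genes, with the mean of 3 libraries as a line. In each of the 12 panels the shLINE_Orf2 and shLINE_Orf1 libraries do not overlap, and Cryab is the one gene shown with both hairpins above all shControl libraries.

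Of 30 genes that the tumour suppressor p53 activates, all tested, 13 were lower in shLINE_Orf2 at an unadjusted p under 0.05 and 0 higher, where 5.87% of all genes were lower, and none was called. The p53 protein is a transcription factor that responds to DNA damage and other stress, and its targets halt the cell cycle, repair DNA or start apoptosis. Of the 30 targets, 23 had negative log2 fold changes and the median was -0.14, against 0.01 for all genes. In 13, not all of them the same genes, the 3 shLINE_Orf2 libraries lay below the 3 of shLINE_Orf1, where this held for 6.28% of all genes. Bax is not among these, and Gadd45a, at -0.11, is. Without shLINE_Orf1 replicate 1 the median was -0.16, 24 were negative and 10 were lower at an unadjusted p under 0.05 (3.37% of all genes). The list was chosen with the result of shLINE_Orf2 against shControl known, where its median was -0.17, so its direction here is not independent of that choice. Its median in shLINE_Orf1 against shControl was 0.08, and -0.03 without replicate 1. Scaled by library size alone, the direct median was -0.055, where that of all genes was 0.0933.

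Pmaip1, which encodes the apoptosis activator Noxa, was at 17.8, 18.9 and 16.5 CPM in shLINE_Orf2 and 32.5, 29.6 and 24.3 CPM in shLINE_Orf1 (-0.70 ± 0.11, adjusted p = 0.0596). The death receptor Fas averaged 7.75 ± 0.28 CPM in shLINE_Orf2 and 13.1 ± 2.0 CPM in shLINE_Orf1 (-0.75 ± 0.16, adjusted p = 0.134). The carbonyl reductase Dcxr, at 26.0 ± 1.6 CPM in shLINE_Orf2 and 47.9 ± 11 CPM in shLINE_Orf1, had a log2 fold change of -0.88 ± 0.19. The membrane protein Perp stood at -0.71 ± 0.22 and the autophagy-linked Trp53inp1 at -0.60 ± 0.18. In the fit without shLINE_Orf1 replicate 1 these 5 genes stood at -0.60 ± 0.11, -0.62 ± 0.16, -0.67 ± 0.17, -0.64 ± 0.23 and -0.44 ± 0.18. In Pmaip1, Fas and Dcxr the groups did not overlap, with or without that library.

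Ccng1, cyclin G1, a classic and strong target, was at 328, 335 and 331 CPM in shLINE_Orf2 and 701, 462 and 427 CPM in shLINE_Orf1. Its log2 fold change was -0.68 ± 0.16, and -0.42 ± 0.11 without shLINE_Orf1 replicate 1, the highest of the 6 libraries. The cell cycle inhibitor Cdkn1a (p21) was at 415, 356 and 378 CPM in shLINE_Orf2 and 447, 517 and 468 CPM in shLINE_Orf1 (-0.32 ± 0.11, and -0.36 ± 0.11 without that library). Mdm2, the ubiquitin ligase that p53 induces and that degrades it, averaged 54.5 ± 3.2 CPM in shLINE_Orf2 and 67.8 ± 6.2 CPM in shLINE_Orf1 (-0.32 ± 0.11, adjusted p = 0.396, and -0.25 ± 0.11 without it). The apoptosis effector Bax stood at -0.38 ± 0.14 with overlapping groups, and Ei24, Eda2r, Phlda3 and Psrc1 lay between -0.50 and -0.26 without overlap. With that library left out, Bax stood at -0.24 ± 0.12 and these 4 between -0.28 and -0.18. The other 17 members had log2 fold changes between -0.20 and 0.23. By library, the mean of the list relative to the shLINE_Orf1 mean was -0.19, -0.23 and -0.22 in shLINE_Orf2 and 0.05, 0.02 and -0.06 in shLINE_Orf1, and between -0.06 and -0.04 in shControl.

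**Figure D2:**
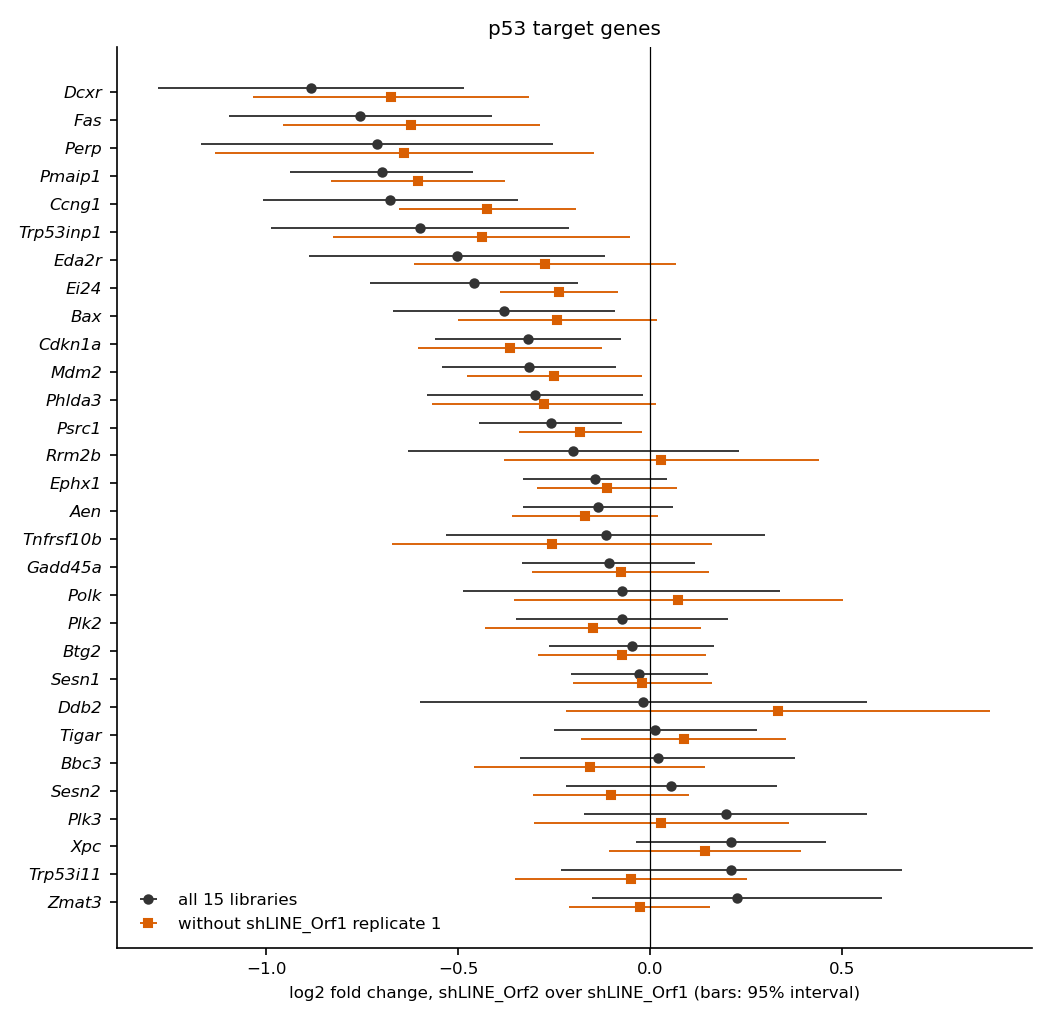
Log2 fold changes of shLINE_Orf2 over shLINE_Orf1 for the 30 p53 targets, with 95% intervals, from all libraries (circles) and without shLINE_Orf1 replicate 1 (squares). The 13 genes at the top have intervals below 0 with all libraries, from Dcxr at -0.88 to Psrc1 at -0.26.

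A p53 half-site, a 10-base piece of the element that p53 binds, occurred on either strand in the promoter window of 9 of the 22 targets found in the RefSeq promoter table (40.9%), and of 9.55% of all genes in it. The window runs from 250 bases before to 50 bases after the start. The windows of Ccng1 (chr11:40755237-40755536, minus strand) and Ei24 (chr9:36797285-36797584, minus strand), from RefSeq on GRCm38.p6, are shown because both genes were lower in shLINE_Orf2 and hold a match, in capitals.
Ccng1: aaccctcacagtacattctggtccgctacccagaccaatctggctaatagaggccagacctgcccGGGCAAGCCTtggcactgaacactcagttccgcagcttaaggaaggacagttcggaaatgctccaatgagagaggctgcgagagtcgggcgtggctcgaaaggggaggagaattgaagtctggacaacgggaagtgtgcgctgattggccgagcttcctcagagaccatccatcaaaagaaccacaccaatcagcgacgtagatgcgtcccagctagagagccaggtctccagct
Ei24: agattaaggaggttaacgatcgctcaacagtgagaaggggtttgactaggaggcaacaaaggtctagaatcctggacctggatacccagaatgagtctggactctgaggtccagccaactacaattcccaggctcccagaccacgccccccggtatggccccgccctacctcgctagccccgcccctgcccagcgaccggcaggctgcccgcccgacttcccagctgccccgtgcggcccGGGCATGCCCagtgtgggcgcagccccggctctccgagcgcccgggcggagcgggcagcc

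Of 30 genes induced by low oxygen outside glycolysis, 12 were higher in shLINE_Orf2 at an unadjusted p under 0.05 and 0 lower, where 5.55% of all genes were higher, and none was called. The replicates were uneven. Hypoxia-inducible factors are stabilised when oxygen falls and switch on genes of glucose uptake, glycolysis, collagen modification and vessel growth. Of the 30 genes, 27 had positive log2 fold changes, as 51.5% of all genes had, with a median of 0.36. The groups did not overlap for 3 of them, Ndrg1, Stc2 and Nxph4, where this held for 7.89% of all genes. Without shLINE_Orf1 replicate 1, 28 were positive (51.1% of all genes) with a median of 0.35, and 8 were higher at an unadjusted p under 0.05 (2.90% of all genes). All 20 glycolysis and glucose uptake genes were positive in both fits, with medians of 0.19 and 0.20. Both fits keep every shLINE_Orf2 library. At an unadjusted p under 0.05, 5 and 3 of them were higher (5.55% and 2.90% of all genes). Both lists were chosen with earlier results of these data known, so their direction is not independent of that choice. Against shControl the hypoxia median was 0.39 in shLINE_Orf2 and 0.02 in shLINE_Orf1, and the glycolysis median 0.29 and 0.02.

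The mean of the hypoxia list relative to the shLINE_Orf1 mean was 0.77, 0.37 and -0.07 in shLINE_Orf2 replicates 1, 2 and 3, and -0.002, 0.22 and -0.21 in the shLINE_Orf1 replicates. The third shLINE_Orf2 library thus lay within the shLINE_Orf1 range, and the first stood above all others. Ndrg1, a stress-responsive gene, was at 23.9, 14.4 and 11 CPM in shLINE_Orf2 and 7.22, 9.22 and 6.05 CPM in shLINE_Orf1 (1.13 ± 0.32, adjusted p = 0.296). The angiogenic factor Vegfa was at 323, 210 and 128 CPM in shLINE_Orf2 and 112, 189 and 121 CPM in shLINE_Orf1, so the groups overlapped (0.65 ± 0.25). Hexokinase 2 (Hk2) was at 24.4, 19.9 and 12.7 CPM in shLINE_Orf2 and 4.94, 14.2 and 9.80 CPM in shLINE_Orf1 (0.98 ± 0.29). The glucose transporter Slc2a3 stood at 0.85 ± 0.26, the collagen prolyl hydroxylase P4ha2 at 0.95 ± 0.31, the mitochondrial adenylate kinase Ak4 at 0.46 ± 0.13 and the glucose phosphate isomerase Gpi1 at 0.43 ± 0.16. The fit without shLINE_Orf1 replicate 1 gave 1.10 ± 0.37 for Ndrg1, 0.51 ± 0.26 for Vegfa, 0.67 ± 0.22 for Hk2, 0.69 ± 0.27 for Slc2a3, 0.77 ± 0.33 for P4ha2, 0.41 for Ak4 and 0.40 for Gpi1. Without shLINE_Orf2 replicate 1 the log2 fold changes, with all 3 shLINE_Orf1 libraries, were 0.76 for Hk2, 0.76 for Ndrg1, 0.55 for P4ha2 and 0.27 for Vegfa.

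The core of the hypoxia response element, ACGTG on either strand, which is also part of the E-box CACGTG, occurred in the window of 15 of the 21 listed hypoxia genes in the promoter table (71.4%) and 13 of 19 glycolysis genes (68.4%), and of 21.8% of all genes. The windows of P4ha2 (chr11:54100674-54100973, plus strand) and Hk2 (chr6:82774405-82774704, minus strand) are shown as members of the 2 lists with 2 matches each, in capitals.
P4ha2: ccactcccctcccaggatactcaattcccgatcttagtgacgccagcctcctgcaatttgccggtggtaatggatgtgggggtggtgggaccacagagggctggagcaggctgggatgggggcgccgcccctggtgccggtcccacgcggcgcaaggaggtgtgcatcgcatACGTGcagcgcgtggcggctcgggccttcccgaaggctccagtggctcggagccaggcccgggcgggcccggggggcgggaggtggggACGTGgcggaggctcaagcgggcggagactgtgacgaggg
Hk2: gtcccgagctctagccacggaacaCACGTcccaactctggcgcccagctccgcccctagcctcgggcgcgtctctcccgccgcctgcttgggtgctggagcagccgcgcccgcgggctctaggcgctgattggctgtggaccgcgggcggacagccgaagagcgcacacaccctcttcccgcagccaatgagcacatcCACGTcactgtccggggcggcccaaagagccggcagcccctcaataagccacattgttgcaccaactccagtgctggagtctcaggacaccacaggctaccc

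Sox10, Pdgfra, Gpr17 and Cspg4, genes of oligodendrocyte precursors, were higher in shLINE_Orf2 at an unadjusted p under 0.05, though none was called, while the myelin gene Mbp stood at -0.11 ± 0.29, and -0.05 ± 0.33 without shLINE_Orf1 replicate 1. Neural progenitors can become oligodendrocyte precursors, which depend on the receptor Pdgfra and the transcription factor Sox10. Sox10 was at 7.53, 7.72 and 5.71 CPM in shLINE_Orf2 and 2.76, 4.71 and 2.85 CPM in shLINE_Orf1 (1.02 ± 0.22, adjusted p = 0.134). Pdgfra was at 20.7, 19.7 and 18.0 CPM in shLINE_Orf2 and 5.57, 11.2 and 11.5 CPM in shLINE_Orf1 (1.04 ± 0.24, adjusted p = 0.145). Both groups of 3 lay apart in each gene. Gpr17, a receptor of committed precursors, averaged 3.88 ± 0.42 CPM in shLINE_Orf2 and 1.65 ± 0.33 CPM in shLINE_Orf1 (1.24 ± 0.29), and Cspg4, the proteoglycan NG2, stood at 0.63 ± 0.24. The values with 1 library fewer in shLINE_Orf1 were 0.89 ± 0.23 for Sox10, 0.77 ± 0.19 for Pdgfra, 1.08 ± 0.31 for Gpr17 and 0.33 ± 0.16 for Cspg4. The shControl means of Sox10 and Pdgfra, 4.61 and 15.8 CPM, lay between the hairpin groups.

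Of the 16 oligodendrocyte lineage genes tested, 9 were positive and 7 negative, with a median of 0.06, and 4 were higher and 0 lower at an unadjusted p under 0.05, where 5.55% of all genes were higher. The groups did not overlap for 5 genes, these 4 and Ugt8a (0.43 ± 0.21), an enzyme of myelin lipids, where this held for 7.89% of all genes. With shLINE_Orf1 replicate 1 left out, the median was 0.04 and 3 of the 16 were higher at an unadjusted p under 0.05 (2.90% of all genes), and Ugt8a stood at 0.40 ± 0.24. In bulk RNA, fewer cells of a type and less RNA per cell cannot be told apart. The summed level of the 7 oligodendrocyte markers, mostly Cspg4, was 110 to 139 CPM in shLINE_Orf2 and 45.6 to 100.5 CPM in shLINE_Orf1. In shControl the sum was 91.4 to 133.6 CPM. The 45.6 CPM was that of shLINE_Orf1 replicate 1, against 100.5 and 84.5 CPM in its group. Its part in these results was not tested.

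Notch receptors are activated by ligands on neighbouring cells and hold neural progenitors back from differentiation. Of 18 Notch pathway genes tested, 16 were positive with a median of 0.23, and 5 were higher at an unadjusted p under 0.05, where 5.55% of all genes were higher. The ligand Dll1 was at 39.5, 41.3 and 41.6 CPM in shLINE_Orf2 and 18.6, 30.5 and 27.1 CPM in shLINE_Orf1 (0.68 ± 0.16, adjusted p = 0.145, and 0.50 ± 0.12 without shLINE_Orf1 replicate 1). The ligand Dll3 stood at 0.53 ± 0.17, the glycosyltransferase Mfng, which modifies the Notch receptors, at 0.71 ± 0.22 and the target Hey1 at 0.24 ± 0.10, and none of these 4 genes overlapped between the groups, where this held for 7.89% of all genes. The fifth, Notch3, did (0.46). With that library left out, 10 of 18 were positive with a median of 0.10, and 5 were higher at an unadjusted p under 0.05 (2.90% of all genes). Dll3 then stood at 0.34, Mfng at 0.56 and Hey1 at 0.23. Notch3, at 0.22, was no longer among the 5. The target Hes5 took its place at 0.58 ± 0.24, against 0.29 ± 0.25 with all libraries. The list mean of that library was -0.31 against 0.29 and 0.02 in the other shLINE_Orf1 libraries.

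Markers of neural progenitors had the highest summed level of the cell types looked at. Over 10 markers it was 6333 to 7139 CPM in shLINE_Orf2 and 6844 to 9946 CPM in shLINE_Orf1. Sox2 averaged 198 ± 3.15 CPM in shLINE_Orf2 and 169 ± 28 CPM in shLINE_Orf1, and the glial progenitor factor Olig2 831 ± 26 CPM in shLINE_Orf2 and 753 ± 223 CPM in shLINE_Orf1. In shLINE_Orf1 replicates 1, 2 and 3, Sox2 was at 141, 197 and 168 CPM and Olig2 at 505, 936 and 819 CPM. Of 26 neural progenitor genes, 20 were positive with all libraries (median 0.14) and 11 without shLINE_Orf1 replicate 1 (median -0.03). The neuronal marker Dcx was at 6.10 ± 2.2 CPM in shLINE_Orf2 and 4.08 ± 1.1 CPM in shLINE_Orf1, and Tubb3 at 10.6 ± 1.8 CPM in shLINE_Orf2 and 8.08 ± 0.701 CPM in shLINE_Orf1. Of the 7 microglia markers all had means under 1 CPM in both groups, as had all 6 mesenchymal markers. Astrocyte markers summed to 295 to 347 CPM in shLINE_Orf2 and 333 to 392 CPM in shLINE_Orf1, and neuron markers, mostly Map2, to 397 to 442 CPM in shLINE_Orf2 and 373 to 418 CPM in shLINE_Orf1. Endothelial markers, mostly Pecam1, summed to 30.0 to 32.7 CPM in shLINE_Orf2 and 32.1 to 48.9 CPM in shLINE_Orf1, whose highest value was that of replicate 1. Ependymal markers summed to 9.39 to 9.49 CPM in shLINE_Orf2 and 8.16 to 11.7 CPM in shLINE_Orf1. The upper end of the progenitor sum in shLINE_Orf1 was its replicate 1, where Fabp7 alone gave 7630 CPM. Pax6, Hes5, Gfap, Neurod1 and the proliferation marker Mki67 had adjusted p-values of at least 0.581 with all libraries. The progenitor gene Nes was at 0.05 ± 0.21 with all libraries and -0.24 ± 0.10 without shLINE_Orf1 replicate 1, where it read 154 CPM against 325 and 350 CPM in its group.

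Several large gene groups had negative medians with all libraries and medians near 0 without shLINE_Orf1 replicate 1. Of 80 nuclear genes of oxidative phosphorylation, 78 were negative with a median of -0.40, and 16 were lower at an unadjusted p under 0.05, where 5.87% of all genes were lower. Without that library the median was -0.06 and 0 were lower. The mitochondrially encoded mRNAs, 12 of 12 negative with a median of -0.64, had a median of 0.01 without it. The 80 cytosolic ribosomal protein genes, all negative with a median of -0.33, had 50 positive and a median of 0.01 without it. The 73 histone genes had medians of -0.45 with it and -0.05 without, and the 78 mitochondrial ribosomal protein genes -0.28 and -0.04.

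Single genes show the same. The complex I gene mt-Nd1 was at 725, 866 and 1058 CPM in shLINE_Orf2 and 2734, 974 and 932 CPM in shLINE_Orf1. Ndufa4, a nuclear gene of the respiratory chain, was at 502, 535 and 627 CPM in shLINE_Orf2 and 1281, 557 and 691 CPM in shLINE_Orf1. The linker histone gene Hist1h1d was at 9.08, 10.5 and 7.58 CPM in shLINE_Orf2 and 31.8, 11.4 and 12.4 CPM in shLINE_Orf1. In all 3 genes the first shLINE_Orf1 library was the highest of the 6 and the others lay nearer to shLINE_Orf2. These groups hold short transcripts: the median exonic length was 1696 bases for the oxidative phosphorylation list and 630 for histones, against 4334 for all genes. The deviation of genes in shLINE_Orf1 replicate 1 had a Spearman correlation across genes of -0.376 with exonic length, and of 0.371 and 0.209 in the other shLINE_Orf1 libraries. In shLINE_Orf2 replicates 1, 2 and 3 it was 0.107, 0.137 and -0.228. Deviations from a mean over replicates offset each other, so the signs within a group are not independent. The part of length in these results was not tested.

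**Figure D3:**
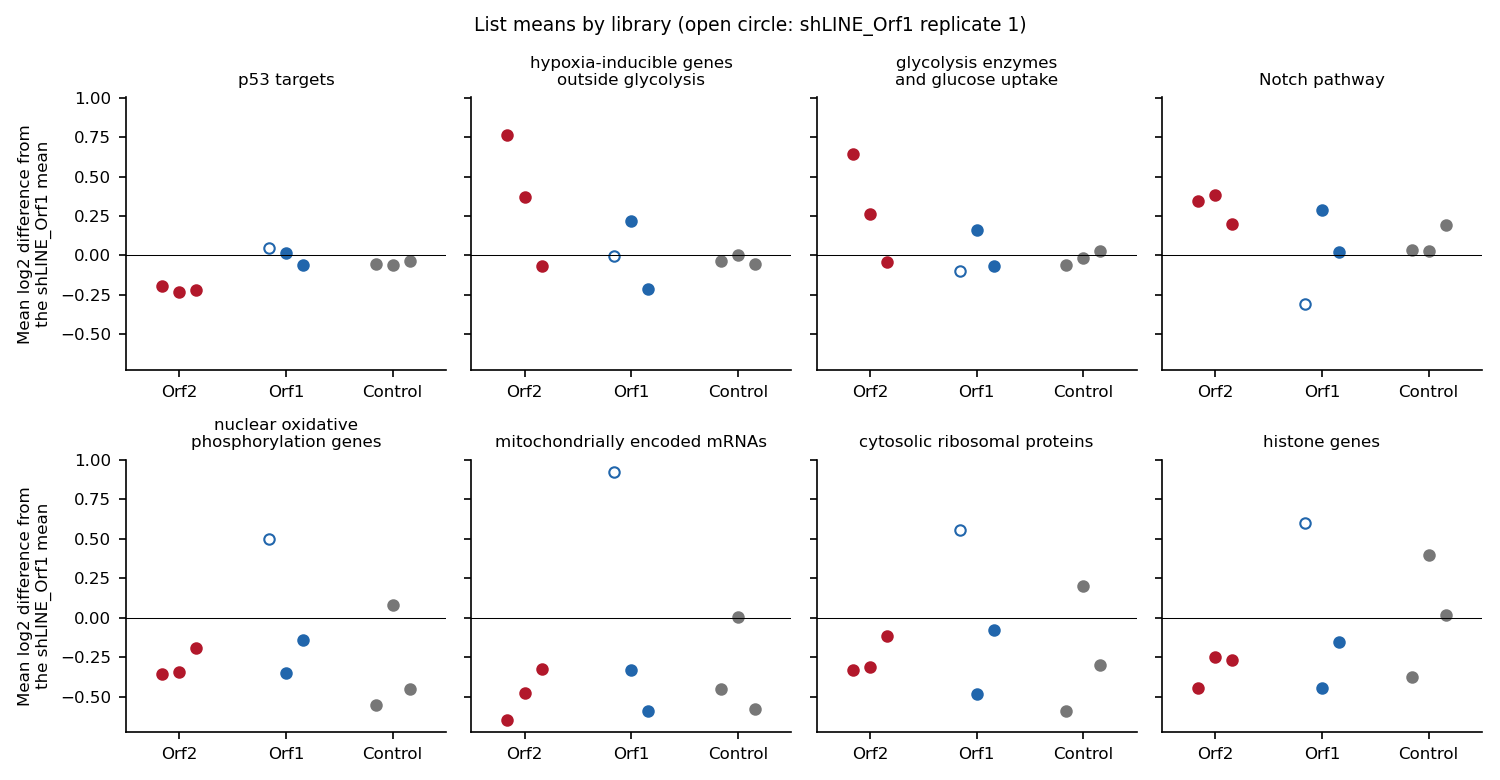
Mean log2 CPM of 8 gene lists in each library, as the difference from the mean of the 3 shLINE_Orf1 libraries, for shLINE_Orf2 (left), shLINE_Orf1 (middle, replicate 1 open) and shControl (right). The p53 targets sit between -0.23 and -0.19 in shLINE_Orf2, while for mitochondrial, ribosomal and histone genes the open point stands above the rest.

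The factor Nrf2 induces genes that defend against oxidants and reactive compounds, among them the glutathione transferases. Of 24 genes, 18 were negative with a median of -0.11, and 8 were lower and 1, the glutathione synthesis gene Gclm, higher at an unadjusted p under 0.05, where 5.87% of all genes were lower and 5.55% higher. In the fit without shLINE_Orf1 replicate 1, 19 were negative, 3 were lower (3.37% of all genes) and 0 higher. Gstt1 was at 35.5, 33.2 and 37.6 CPM in shLINE_Orf2 and 69.0, 51.9 and 47.5 CPM in shLINE_Orf1 (-0.66 ± 0.15, adjusted p = 0.144). Gstm1 averaged 203 ± 11 CPM in shLINE_Orf2 and 259 ± 15 CPM in shLINE_Orf1 (-0.35 ± 0.09), and the quinone reductase Nqo1 stood at -0.68 ± 0.18. These 3 genes are the ones that were also lower at an unadjusted p under 0.05 without that library, at -0.49 ± 0.13, -0.31 ± 0.09 and -0.43 ± 0.15. Gstm1 has close paralogs whose reads may be shared.

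With shLINE_Orf1 replicate 1 left out, Dusp6 and the D cyclins Ccnd1 and Ccnd2 were lower in shLINE_Orf2 at an unadjusted p under 0.05, though none was called. Dusp6, a phosphatase that ERK signalling induces and that inactivates ERK, was at 442, 370 and 355 CPM in shLINE_Orf2 and 373, 579 and 561 CPM in shLINE_Orf1, so the groups overlapped through the library that stands apart. Its log2 fold change was -0.38 ± 0.15 with all libraries and -0.55 ± 0.11 without it (adjusted p = 0.434 and 0.117). Cyclin D1 (Ccnd1), which drives entry into the cell cycle, was at 2013, 1771 and 1829 CPM in shLINE_Orf2 and 1818, 2502 and 2468 CPM in shLINE_Orf1 (-0.27 ± 0.11, and -0.41 ± 0.08 without it). Ccnd2 stood at -0.15 ± 0.12, and -0.31 ± 0.08 without it. Ccnd3, also a D cyclin, stood at -0.06, and -0.07 without it. Of 19 genes of FGF and EGF feedback, 12 were positive with all libraries (median 0.05) and 15 were negative without it (median -0.10). At an unadjusted p under 0.05, 1 was higher and 1 lower with all libraries (5.55% and 5.87% of all genes), and 0 were higher and 4 lower without it (2.90% and 3.37%). Of the immediate early genes, which growth factors induce within minutes, 2 of 25 were higher with all libraries (median 0.11) and 0 of 26 passed in either direction without it (median -0.07). In the direction opposite to Ccnd1 and Ccnd2, the Cdk inhibitor Cdkn1c (p57) stood at 0.45 and 0.49 in the 2 fits. The inhibitor Cdkn1a stood at -0.32 and -0.36, and Cend1, linked to cell cycle exit in neurons, at -0.68 ± 0.15 and -0.58 ± 0.15. Of 16 G1 cyclins and Cdk inhibitors, 7 were positive and 9 negative (median -0.05), and 8 and 8 without that library (median -0.03). At an unadjusted p under 0.05, 1 was higher and 3 lower (5.55% and 5.87% of all genes). Without it, 1 was higher and 4 lower (2.90% and 3.37%).

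Of 36 genes linked to LINE-1 restriction or heterochromatin, a list that also holds the Tet oxidases, 26 were positive (median 0.15). At an unadjusted p under 0.05, 2 were higher, Tet1 and the RNA helicase Mov10 (0.62 ± 0.22). Of all genes 5.55% were higher, which is near the share of the list. Without shLINE_Orf1 replicate 1 the median was 0.04, 2 were higher (2.90% of all genes), and Mov10 stood at 0.36 ± 0.17. Of 39 interferon-stimulated genes, 25 were negative (median -0.09). Scaled by library size alone the median was 0.01, where that of all genes was 0.0933. At an unadjusted p under 0.05, 5 were lower and 2 higher (5.87% and 5.55% of all genes). Without that library 0 were lower or higher (3.37% and 2.90% of all genes). Rtp4 stood at -0.40 ± 0.13, Ifi27 at -0.42 ± 0.14 and Irgm1 at -0.32 ± 0.11, and without that library at -0.23 ± 0.11, -0.26 ± 0.13 and -0.20 ± 0.10. DNA replication genes were negative in 26 of 30 (median -0.14), and in 27 of 30 without that library (-0.13). At an unadjusted p under 0.05, 6 and 1 of them were lower, where 5.87% and 3.37% of all genes were. Without that library the list was thus near the share of all genes. Of 36 mitosis genes, 20 were positive with all libraries and 26 without that one, with 0 members at an unadjusted p under 0.05 in either fit.

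Of 18 astrocyte genes, 8 were positive and 10 negative, with a median of -0.19, and 5 were lower and 1 higher at an unadjusted p under 0.05 (5.87% and 5.55% of all genes). The fit without shLINE_Orf1 replicate 1 gave a median of -0.09, with 4 lower (3.37% of all genes) and 0 higher. Their leading member was Apoe, a lipid carrier, at 290, 300 and 283 CPM in shLINE_Orf2 and 539, 473 and 372 CPM in shLINE_Orf1 (-0.67 ± 0.18, adjusted p = 0.279, and -0.54 ± 0.18 without that library). Neuronal genes had medians of 0.12 in both fits, with Gad1, which makes GABA, at 0.54 ± 0.19 and the neurofilament gene Nefl in the other direction, at -0.88, and at 0.48 ± 0.20 and -1.03 ± 0.38 without that library. Cholesterol synthesis genes had 16 of 25 positive (median 0.08), led by Hmgcs1 at 0.26 ± 0.10 and Dhcr7 at 0.25 ± 0.11 (0.19 ± 0.10 and 0.18 ± 0.10 without that library). Integrated stress and unfolded protein response genes had 19 of 31 positive in both fits (medians 0.07 and 0.05), with Vldlr the leading member.

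**Figure D4:**
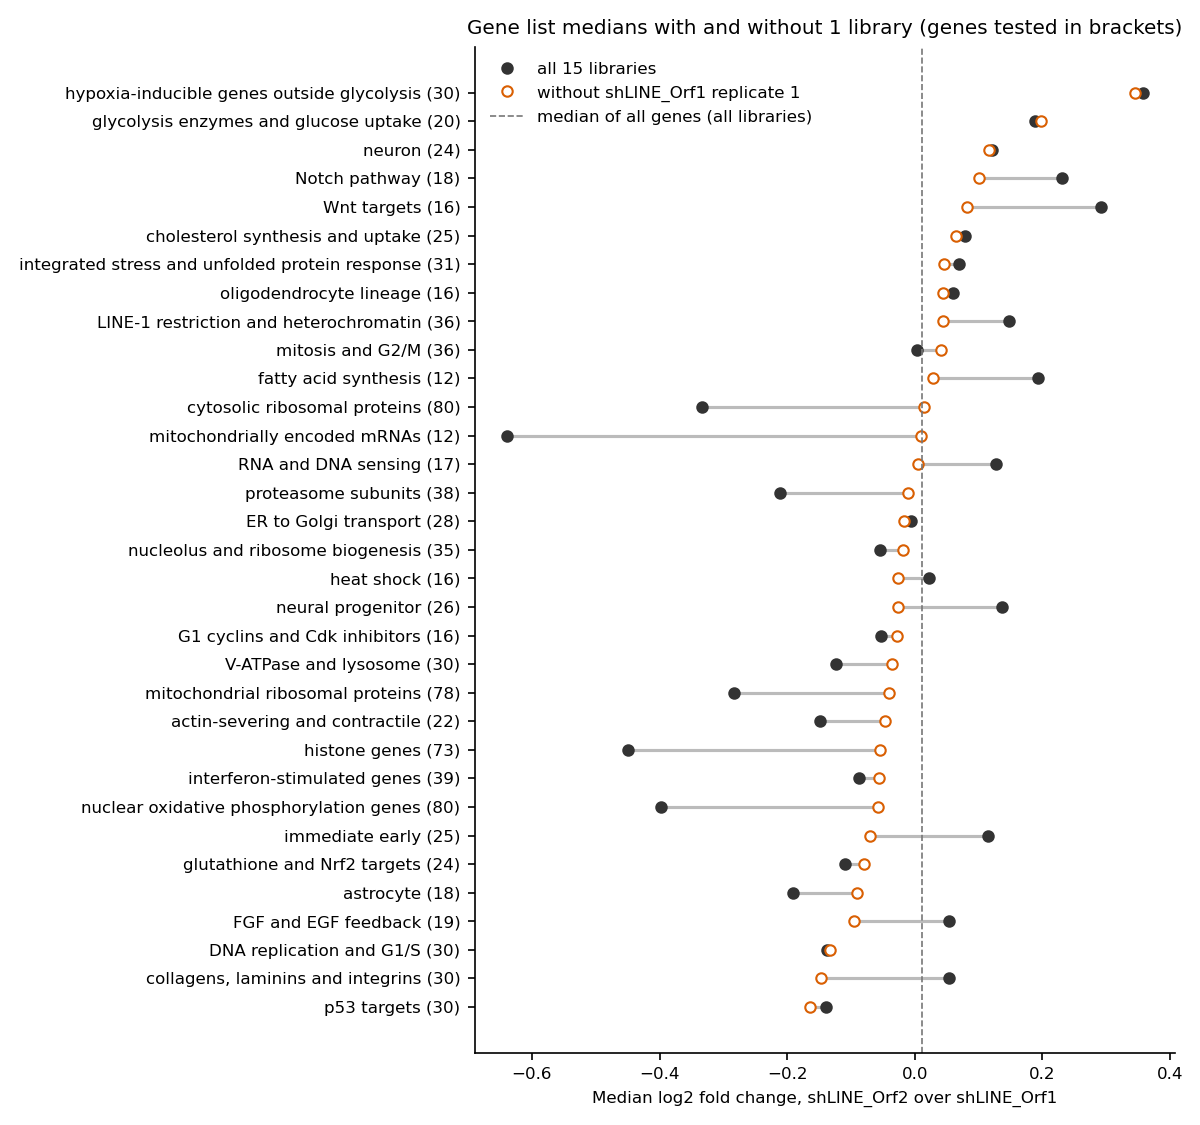
Median log2 fold change of shLINE_Orf2 over shLINE_Orf1 for each list with at least 10 genes tested, from all libraries (filled) and without shLINE_Orf1 replicate 1 (open), with the number of genes tested in brackets. The hypoxia list stays at 0.36 and 0.35 and the p53 list at -0.14 and -0.16, while the mitochondrially encoded list goes to 0.01 without the library, against -0.64 with it.

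A panel of 28 genes that earlier results had named for one of the hairpins against shControl was set side by side. Against shControl, 18 of them were called in shLINE_Orf2 and 14 in shLINE_Orf1, with 7 called in both, where 0.192% and 0.178% of all genes were called. These comparisons share their shControl libraries and chose the panel, so the values are a description. They also use the same shLINE_Orf2 and shLINE_Orf1 libraries as the direct comparison, whose counts are thus not independent of that choice. In the direct comparison, 0 of the 28 were called, 3 were higher and 11 lower at an unadjusted p under 0.05, and the interval lay within 0.5 on the log2 scale for 11, where 5.55% of all genes were higher and 5.87% lower. The fit without shLINE_Orf1 replicate 1 called 0 of them, with 3 higher and 13 lower at an unadjusted p under 0.05 (2.90% and 3.37% of all genes) and 13 intervals within 0.5. Some genes stood nearly level under both hairpins. Mfge8, a secreted protein that helps to clear dying cells, had log2 fold changes over shControl of -0.44 in shLINE_Orf2 and -0.43 in shLINE_Orf1, and directly of -0.01 with a 95% interval of -0.17 to 0.16. Desi1 had 0.60 in shLINE_Orf2 and 0.54 in shLINE_Orf1, and directly 0.06 (-0.13 to 0.24). The interval of Mavs, an adaptor of RNA sensing, ran from -0.12 to 0.44.

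Others of the panel differed in size. Cryab had log2 fold changes over shControl of 0.96 in shLINE_Orf2 and 1.62 in shLINE_Orf1. Gstt1 had 0.21 in shLINE_Orf2 and 0.87 in shLINE_Orf1, Cend1 0.25 in shLINE_Orf2 and 0.93 in shLINE_Orf1, and the myosin light chain Myl9 0.29 in shLINE_Orf2 and 0.75 in shLINE_Orf1, with Myl9 at -0.46 ± 0.12 directly and -0.44 ± 0.13 without shLINE_Orf1 replicate 1. Acss2 had 0.55 in shLINE_Orf2 and 0.00 in shLINE_Orf1. The protease inhibitor Serpinb1a had -1.20 in shLINE_Orf2 and -0.32 in shLINE_Orf1, and directly -0.88 ± 0.21 (adjusted p = 0.182, and -0.61 ± 0.19 without that library). Pqlc3 had -0.98 in shLINE_Orf2 and -0.15 in shLINE_Orf1, and directly -0.82 ± 0.16 (adjusted p = 0.127, and -0.65 ± 0.15 without it). Cpne1, a calcium-dependent phospholipid-binding protein, had -0.30 in shLINE_Orf2 and -0.72 in shLINE_Orf1, and directly 0.42 ± 0.11 (0.36 ± 0.11 without it). The linker histone gene Hist1h1c had -1.37 in shLINE_Orf2 and -0.95 in shLINE_Orf1, and directly -0.42 ± 0.17, or -0.15 ± 0.13 without shLINE_Orf1 replicate 1.

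**Figure D5:**
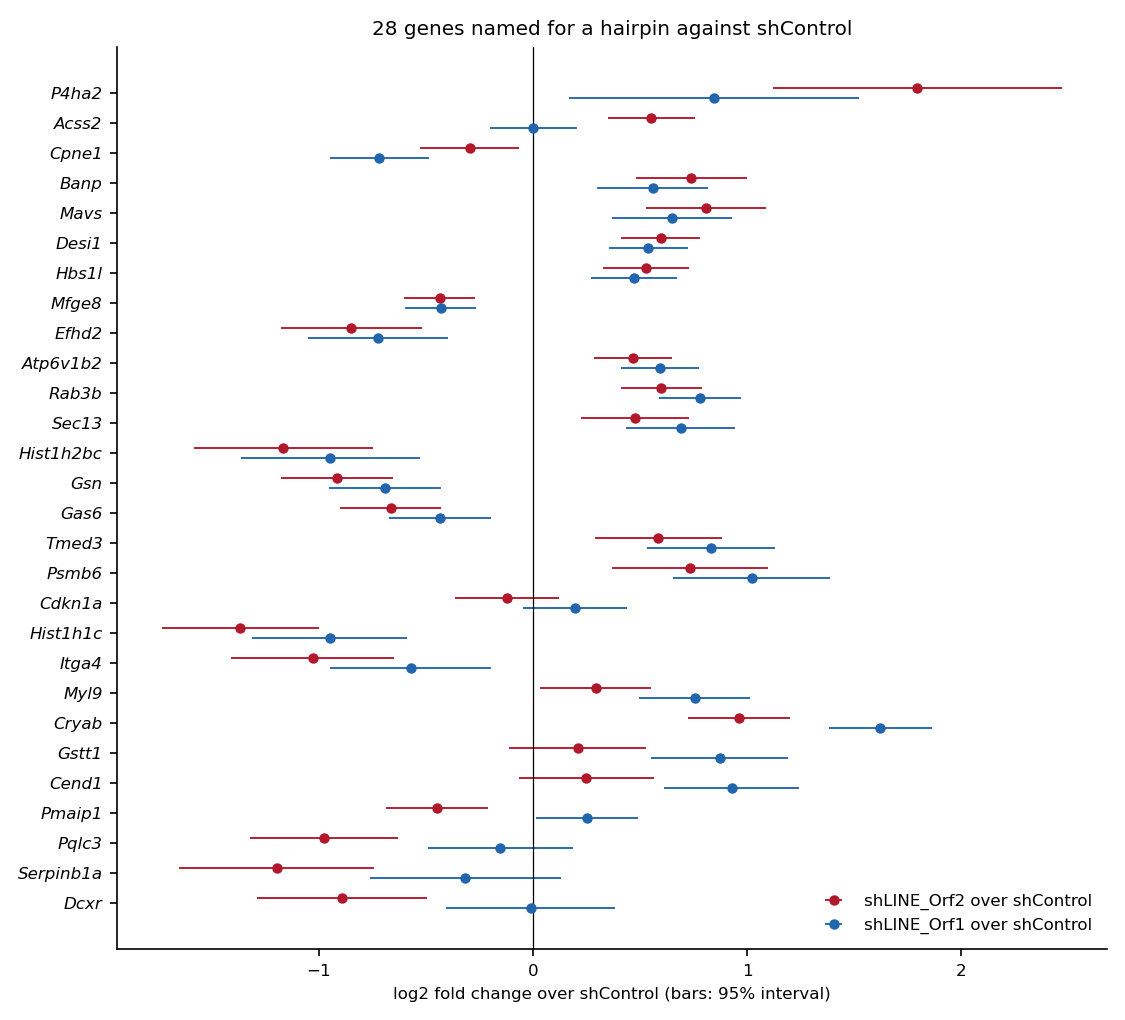
Log2 fold changes over shControl, with 95% intervals, for 28 genes in shLINE_Orf2 (upper point of each pair) and shLINE_Orf1 (lower point), ordered by the direct difference. P4ha2 and Acss2 at the top were higher in shLINE_Orf2 than in shLINE_Orf1, Mfge8 and Desi1 nearly coincide, and Dcxr and Serpinb1a at the bottom were lower.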

How the data were processed

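RNA of sorted mouse neural progenitors was sequenced from SMART-seq2-type libraries, per the labels' protocols. The authors deposited expected counts per transcript for 15 libraries, and the submitters' processing notes name cutadapt, RSEM and mm10, without versions or settings. Whether counting used strand is not given in the sources used here, so overlapping and antisense genes, close paralogs and histone genes are uncertain.

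The expected counts were summed to 34910 genes with GENCODE symbols and rounded to whole numbers. Between 0.595% and 0.650% of the counts per library lay on transcripts without a gene in the annotation, and 1 row was blank; these were left out. Genes were filtered with filterByExpr (minimum count 10), scaled by TMM and tested with edgeR 4.0.16 (robust quasi-likelihood, R 4.3.3) in a model of 5 groups, with Benjamini-Hochberg adjustment over all genes and a threshold of 0.05. A second fit left out shLINE_Orf1 replicate 1. The steps were tested on simulated data. Levels in CPM are gene counts scaled to the same total in every library, ± is the SD of 3 libraries beside a level and the SE beside a log2 fold change, and intervals are 95%. Gene depth was 39204191 to 48724079 counts in the compared libraries, and the median SE of a log2 fold change was 0.172.

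Genes were named as those called with the largest change or, where too few were called, the 8 of each direction with the smallest p in either fit, with 28 genes from earlier results, up to 3 members of each list and 12 markers. The members and lists were chosen with earlier results of these data known, and further list members were named after their values were seen. Alternatives were other scalings and filters, thinning, DESeq2 1.42.0, limma-voom 3.58.1 with quality weights, the compared groups alone, a replicate block, the number in the library description as a covariate, 1 surrogate variable (sva 3.50.0) and leaving out libraries. Promoter windows are from RefSeq on GRCm38.p6.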

Additional observations from a re-analysis of the deposited data

How the results depend on the processing

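The count of genes called, 0 with all libraries and 0 without shLINE_Orf1 replicate 1, depended on the tool. With all libraries it was 11 with no filter, 128 with DESeq2, 832 with limma-voom, 26 with 1 surrogate variable and 24 without shLINE_Orf1 replicate 1 and shControl replicate 2. Leaving out 1 library at a time gave 0 to 5 calls. Without shLINE_Orf1 replicate 1 it was 12 with no filter, 91 with DESeq2, 26 with limma-voom, 13 with the compared groups alone, 75 with 1 surrogate variable and 24 without shControl replicate 2 as well, and leaving out 1 more library gave 0 to 1. The cause was not tested. Every other setting gave 0, the replicate block included. The correlations of deviations between same-numbered replicates were -0.116, 0.023 and -0.0428, and those between differently numbered ones ran from -0.138 to 0.136. With 3 libraries a group these cannot tell whether same-numbered libraries were paired, and the labels do not say. Nothing was read from the block.

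Scaling by library size alone moved the median of all genes to 0.0933, against 0.0111. Of the genes named, 9 changed sign under some setting, and the cause was not tested. Mfge8 stood at 0.078 by library size alone and 0.012 with a surrogate variable. Mavs stood at -0.0072 with a surrogate variable and Hbs1l at -0.0038 with limma-voom. Hist1h2bc stood at 0.051 with limma-voom, 0.13 with a surrogate variable and 0.062 without shLINE_Orf1 replicate 1 and shControl replicate 2. Nes stood at -0.27 with limma-voom, -0.091 with the description number, -0.19 with a surrogate variable and -0.24 without both libraries. Pax6 stood at -0.012 after thinning. Olig2 stood at -0.089 with a surrogate variable and -0.076 without both. Gfap stood at -0.049 with the description number, -0.12 with a surrogate variable and -0.016 without both. Neurod1 stood at -0.021 after thinning, -0.54 with limma-voom, -0.033 with a surrogate variable and -0.073 without both. Leaving out 1 library at a time gave -0.021 to 0.024 for Mfge8, -0.35 to 0.057 for Hist1h2bc, -0.24 to 0.25 for Nes, -0.023 to 0.083 for Pax6, -0.081 to 0.32 for Olig2, -0.17 to 0.29 for Gfap and -0.11 to 0.50 for Neurod1.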
